A study of Mus with 30 samples.

Results

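Transcripts listed only in the drug tables were examined in the cardiac tissue of mice infused with angiotensin II (Ang II). They are the Ensembl transcripts that have a value in the table of at least 1 of 4 drug groups and none in the tables of the Control and Ang II groups. They were thus selected on the measured values themselves, through the filter on group means that the tables had passed before deposit. The rule found 3356 such transcripts, called members here, of 27294 Ensembl transcripts and 36503 identifiers in all tables together.

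RNA depleted of ribosomal RNA was sequenced from 30 male C57BL/6 mice, an inbred laboratory strain, in 6 groups of 5. The Control mice received saline in place of both Ang II and drug, and the AngII mice were infused with Ang II at 500 ng/kg/min for 28 days and received saline in place of a drug. The same infusion was given to 4 further groups together with ethoxysanguinarine (AngII+ETH), baicalin (AngII+BAI) or gastrodin (AngII+GAS) at 5 mg/kg/day, or with valsartan (AngII+VAL) at 10.4 mg/kg/day. All 4 drug groups therefore carry the Ang II infusion, no group received a drug alone, and the dose of valsartan differed from that of the others. The age of the mice is not in the labels.

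Ang II acts through its receptors on vessels, kidney and heart, raises blood pressure and leads to enlargement and scarring of the heart muscle. Valsartan blocks the type 1 receptor of Ang II, whereas baicalin, a flavone glucuronide, gastrodin, a phenolic glucoside, and ethoxysanguinarine, an alkaloid derivative, are compounds from medicinal plants. An Ensembl transcript is 1 annotated isoform of a gene, and most genes have several that share much of their sequence. When short reads fit several isoforms, a program divides them among the isoforms, so the value of 1 isoform can be near 0 in a sample where the gene is read well. Neither the files nor the reference table used here pair these identifiers with genes (0 of 49997 genes in that table carry an Ensembl identifier). Members are therefore named by identifier, their functions and sequences are not given, and the labelled tissue was not checked against marker genes.

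Each table holds 1 value per transcript and mouse, read here as FPKM, which is scaled for transcript length and library size. The Control and AngII tables list the same transcripts, and each of these has a mean of at least 0.5 FPKM in one group or the other. A drug table lists a transcript when its mean reaches 0.5 FPKM in the AngII group or in that drug group. All 27552 identifiers that reached this minimum in the AngII group were listed in every drug table. Absence from the Control and AngII tables thus means a mean under 0.5 FPKM in both, not a level of 0. It also means that no single mouse of these groups could reach 2.5 FPKM, since 5 mice with 1 at that level would have a mean at the minimum. No value of a member exists for a Control or AngII mouse, so no change from these groups was tested for any member.

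Baicalin mouse 5113 and valsartan mouse 5131 stood apart from the other mice of their groups. The mean correlation of log2(FPKM + 1) with its own group was 0.772 for mouse 5113, compared with 0.799 to 0.809 for the other baicalin mice. It was 0.812 for mouse 5131, compared with 0.824 to 0.825 for the other valsartan mice. The share of transcripts at 0 was highest in mouse 5113 (11.3%, against 6.39% to 10.5% in the other 19 drug mice). Both measures run over all transcripts of a table, so they include members that a high value in the mouse itself brought in. The main counts that rest on these mice are given with and without them.

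Most members were listed by a single drug table. Of the 3356, 2228 (66.4%) were in 1 table, 727 in 2, 300 in 3 and 101 (3.01%) in all 4. The baicalin table alone listed 779, the ethoxysanguinarine table alone 531, the valsartan table alone 470 and the gastrodin table alone 448. Without baicalin mouse 5113 these numbers were 353 for baicalin, 567 for ethoxysanguinarine, 506 for valsartan and 471 for gastrodin. Leaving out a mouse can only take members from its table, since transcripts under the minimum with all 5 mice have no value there. The 353 thus cannot be ranked against tables that kept all 5 mice. Without valsartan mouse 5131 the valsartan table alone listed 322. Counting members shared with other tables, 1484 were in the baicalin table, and 1259, 1124 and 1119 in the tables of ethoxysanguinarine, valsartan and gastrodin. These made up 4.81% to 6.27% of the Ensembl transcripts of each table. The largest number rests on 1 mouse, since without baicalin mouse 5113 only 919 of the 1484 kept a mean of at least 0.5 FPKM. Leaving out any other single mouse left 1251 to 1309 in the baicalin table.

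**Figure D1:**
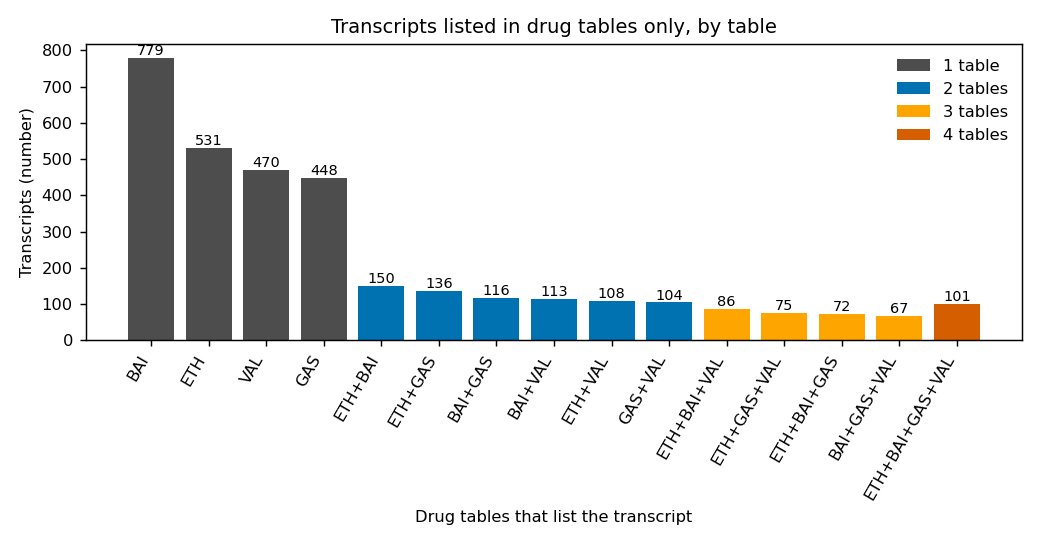
Number of members (vertical axis) for each of the 15 combinations of drug tables that list them (horizontal axis), with bars coloured by how many tables list the transcript. The 4 single-table bars, from 448 to 779 transcripts, stand above every shared combination, of which the largest holds 150.

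Pairs of tables shared about as many members whichever drugs were paired. The ethoxysanguinarine and baicalin tables shared 409, which is 32.5% of the former and 27.6% of the latter. The gastrodin and valsartan tables shared 347, which is 31.0% and 30.9% of theirs. The other 4 pairs shared 356 to 384. These counts include baicalin mouse 5113, and pair counts without it were not made. Without that mouse the baicalin table held 919 members, 353 of them alone, in place of 1484 and 779. As a description of the same minimum in other transcripts, 3111 Ensembl transcripts reached 0.5 FPKM in the Control group and not in the AngII group. Of the 2351 of these that a drug table listed, 29.6% were in 1 table and 21.9% in all 4. Those transcripts are already known to reach the minimum in a group outside the drug tables, which the members by their definition do not.

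The members are a fraction of the transcripts that lay on either side of 0.5 FPKM in a drug group and the AngII group. In the gastrodin group 2436 Ensembl transcripts reached the minimum that did not reach it in the AngII group, and 1119 of these (45.9%) were members. In the opposite direction, 1948 reached it in the AngII group and not in the gastrodin group. For ethoxysanguinarine the numbers were 2758 and 2004, for baicalin 2841 and 2044, and for valsartan 2512 and 1892. The Control group, which received no drug, gave 3111 and 1942 against the same AngII mice.

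Members were low in the tables that list them. Their median mean was 0.611 FPKM in the ethoxysanguinarine table, 0.630 in the baicalin table, 0.609 in the gastrodin table and 0.602 in the valsartan table. A mean of at least 1 FPKM was reached by 136, 240, 120 and 118 members in that order, and by 31, 22, 29 and 20 also when the highest mouse was left out. Of the 240 in the baicalin table, 120 remained at 1 FPKM without mouse 5113. In all 5 mice of a table, the minimum of 0.5 FPKM was reached by 33, 31, 26 and 22 members.

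Most members were above 0 in every mouse of the table that lists them. This held for 70.0% in the ethoxysanguinarine table, 64.6% in the baicalin table, 66.0% in the gastrodin table and 63.5% in the valsartan table. Only 19, 33, 25 and 15 members in that order were above 0 in a single mouse. At a level of 0.1 FPKM in place of 0, 52.8%, 45.1%, 48.8% and 46.7% were above it in all 5 mice. Among other Ensembl transcripts of the same tables with a mean from 0.5 to 1 FPKM, 80.4% to 83.1% were above 0 in all 5 mice, compared with 66.6% to 72.9% of the members in that range. For those that reached the minimum in Control and not in AngII it was 80.7% to 84.0%. These shares are descriptions, since the members were chosen by the same means.

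The listing of most members depended on their highest mouse. Without it, the mean fell under 0.5 FPKM for 64.3% of the members of the ethoxysanguinarine table, 73.2% for baicalin, 65.5% for gastrodin and 69.5% for valsartan. Within the range from 0.5 to 1 FPKM the shares were 67.5%, 74.9%, 69.0% and 72.4%. For all other Ensembl transcripts in that range they were 32.6%, 34.8%, 33.3% and 33.0%. Those that reached the minimum in Control and not in AngII lay between, at 46.0%, 50.7%, 49.2% and 48.3%. The shares are descriptions, since the members were chosen by the same means, and a mean near the minimum falls under it more easily. Over all tables, 2169 members lost their place in every table that lists them and 1187 (35.4%) kept a mean of at least 0.5 FPKM in at least 1. In all 4 tables, 15 members kept it.

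**Figure D2:**
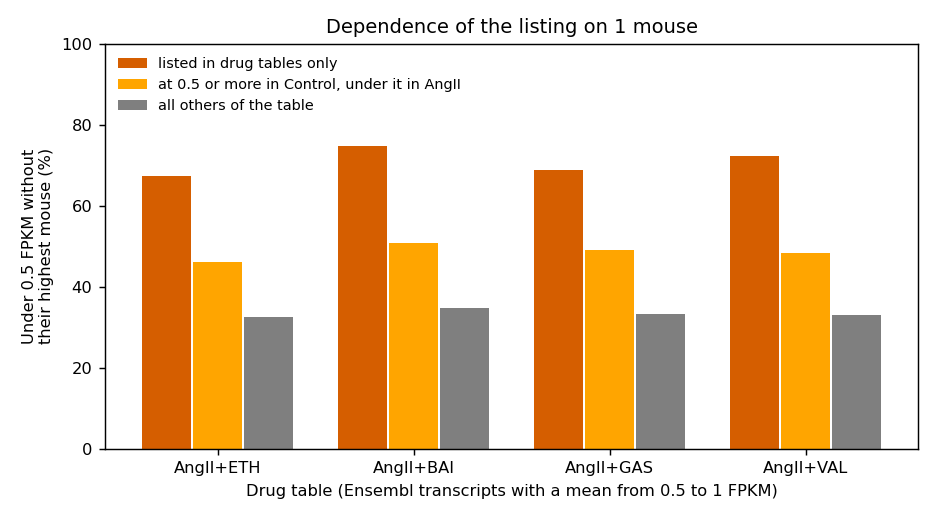
Percentage of Ensembl transcripts (vertical axis, 0 to 100) whose mean falls under 0.5 FPKM when their highest mouse is left out, for each drug table (horizontal axis), among transcripts with a mean from 0.5 to 1 FPKM. The bars of the members (67.5% to 74.9%) stand above those of transcripts that reached the minimum in Control and not in AngII (46.0% to 50.7%) and those of all others of the table (32.6% to 34.8%).

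The 101 members listed in all 4 drug tables had values in all 20 drug mice. Their median mean over these mice was 0.706 FPKM, with a range from 0.519 to 11.4 FPKM, and 19 had a mean of at least 1 FPKM. Of the 101, 61 were above 0 in every drug mouse, and the member with the fewest was above 0 in 6 of 20.

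ENSMUST00000092070 and ENSMUST00000218084 had the highest values in their lowest mouse among the members in all 4 tables. ENSMUST00000092070 was at 0.622, 0.505, 0.630, 0.544 and 0.604 FPKM in the 5 ethoxysanguinarine mice and at 0.393, 0.451, 0.526, 0.733 and 0.499 FPKM in the baicalin mice. In the gastrodin mice it was at 0.613, 0.673, 0.774, 0.587 and 0.473 FPKM, and in the valsartan mice at 0.719, 0.498, 0.519, 0.486 and 0.586 FPKM. All 20 mice thus lay within a narrow band about the minimum, and the 4 groups overlapped. Its group means were 0.581 ± 0.0541 (ETH), 0.520 ± 0.129 (BAI), 0.624 ± 0.111 (GAS) and 0.561 ± 0.0960 FPKM (VAL; SD, n = 5 each). ENSMUST00000218084 had group means of 0.805 ± 0.230, 0.566 ± 0.127, 0.702 ± 0.185 and 0.921 ± 0.604 FPKM in the same order (SD, n = 5 each). Its lowest mouse was baicalin mouse 5154 at 0.378 FPKM and its highest valsartan mouse 5121 at 1.95 FPKM.

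The highest means in all 4 tables belonged to transcripts that were either high or near 0 in a mouse. ENSMUST00000105785 was at 11.3, 23.1 and 27.0 FPKM in 3 ethoxysanguinarine mice and at 0.00518 and 0 FPKM in the others. It was at 7.65 and 20.8 FPKM in 2 baicalin mice, at 47.7 and 25.2 FPKM in 2 gastrodin mice, and at 42.6, 11.4 and 10.1 FPKM in 3 valsartan mice. In the other 8 mice of these 3 groups it did not exceed 0.0570 FPKM. It was thus high in 10 of 20 mice, with high and low mice in every drug group and no mouse between 0.0570 and 7.65 FPKM.

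ENSMUST00000208634 showed the same split with fewer high mice. It was at 8.27 FPKM in 1 ethoxysanguinarine mouse, at 28.8 and 20.5 FPKM in 2 baicalin mice, at 26.5 FPKM in 1 gastrodin mouse and at 23.0 FPKM in 1 valsartan mouse. In the other 15 mice it was at most 0.0238 FPKM.

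**Figure D3:**
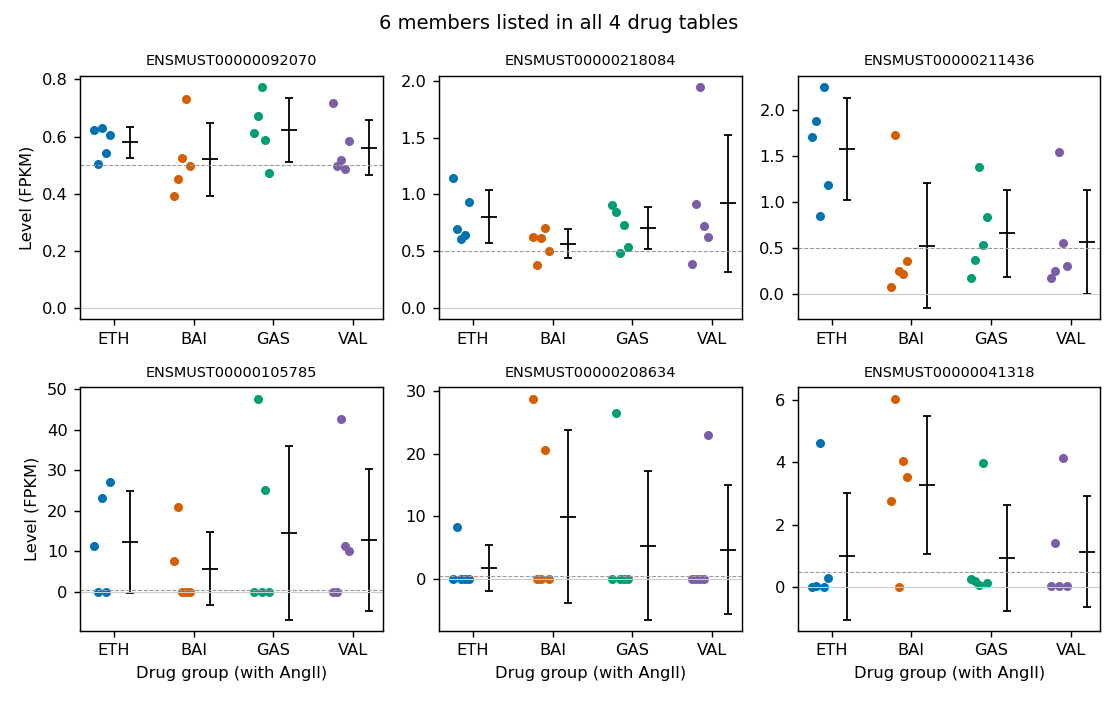
Level in FPKM on linear vertical axes that differ between the panels, for 6 members listed in all 4 drug tables, by drug group (horizontal axis); each point is 1 of 5 mice, black bars are mean ± SD, and the dashed line marks 0.5 FPKM. ENSMUST00000092070 lies about the dashed line in all groups (0.393 to 0.774 FPKM), ENSMUST00000218084 lies at or above it in most mice (0.378 to 1.95 FPKM), ENSMUST00000105785 and ENSMUST00000208634 are split into high mice and mice near 0 in every group, and the ethoxysanguinarine mice of ENSMUST00000211436 (0.849 to 2.25 FPKM) overlap those of the other groups.

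Among the members listed by 1 drug table alone, the highest means came from 1 or 2 mice, and the members with the highest value in their lowest mouse had means near 1 FPKM or below. In the ethoxysanguinarine table, ENSMUST00000212461 was at 9.75 and 9.59 FPKM in mice 5118 and 5123 and at 0.136 to 0.294 FPKM in the other 3. ENSMUST00000133040 was at 16.6 FPKM in mouse 5125 and at 0.175 to 0.206 FPKM in the other 4. Those with the highest lowest mouse were ENSMUST00000047243, at 1.14, 0.749, 0.755, 1.19 and 1.10 FPKM (0.987 ± 0.217, SD, n = 5), and ENSMUST00000100638, at 0.657 to 0.939 FPKM (0.763 ± 0.110, SD, n = 5). In both, each of the 5 ethoxysanguinarine mice was above the minimum, but these members were picked for a high lowest mouse. The means of the other groups lay under the minimum by the listing rule. Single mice of those groups could still lie as high as these values, and a difference from those groups was not tested.

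Among the members listed by 1 table alone, the baicalin table held the 2 with the highest means, and these came from mouse 5113. ENSMUST00000033185 was at 575 FPKM in mouse 5113 and at 0.689, 0.135, 0 and 0 FPKM in the other 4 baicalin mice. ENSMUST00000027144 was at 176 FPKM in mouse 5113 and at most 0.173 FPKM in the others. Their group means of 115 and 35.2 FPKM thus describe 1 mouse. By contrast, ENSMUST00000132545 was at 0.616 to 1.91 FPKM in the 5 mice (1.05 ± 0.575, SD, n = 5) and ENSMUST00000226563 at 0.596 to 1.25 FPKM (0.956 ± 0.324, SD, n = 5), with mouse 5113 at 0.672 and 0.596 FPKM.

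In the gastrodin table, the highest means of members listed there alone came from mouse 5120. ENSMUST00000066530 was at 49.5 FPKM and ENSMUST00000156623 at 48.2 FPKM in that mouse, and in the other 4 they did not exceed 0.0175 and 0.0999 FPKM. The gastrodin members with the highest lowest mouse were ENSMUST00000123307, at 0.693, 0.903, 0.847, 0.829 and 0.783 FPKM (0.811 ± 0.0788, SD, n = 5), and ENSMUST00000201431, at 0.622 to 0.945 FPKM (0.750 ± 0.129, SD, n = 5). In both, every gastrodin mouse lay above the minimum, but these members too were picked for a high lowest mouse.

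In the valsartan table, both of the highest means came from mouse 5131. ENSMUST00000123238 was at 23.6 FPKM there and at 0 to 0.686 FPKM in the other 4, and ENSMUST00000211050 was at 10.6 FPKM there and at 0 to 0.630 FPKM in the others. ENSMUST00000175937 (0.581 to 0.971 FPKM, 0.765 ± 0.169, SD, n = 5) and ENSMUST00000221110 (0.503 to 0.709 FPKM, 0.589 ± 0.0902, SD, n = 5) had the highest lowest mouse. In the 4 drugs together, the members named for their lowest mouse had lower means than those named for their mean. That order follows from how the members were chosen.

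Mouse 5113 gave more of the members' level than any other drug mouse. This is a description, since a high value in mouse 5113 could itself bring members into the table. Without that mouse, 565 of the 1484 members of its table fell under the minimum. Summed over the members of its table, the level of mouse 5113 was 3851 FPKM, against 885 to 1120 FPKM in the other baicalin mice and 743 to 1132 FPKM over the mice of the other 3 groups. It contributed over 50% of the summed level of 401 members, 324 of them listed in the baicalin table alone, and over 80% for 219. In the other 4 baicalin mice these numbers were 54 to 83 and 16 to 32. Members at 5 FPKM or more in mouse 5113 and under 1 FPKM in each of the other baicalin mice numbered 113, compared with 4 to 6 for each of the others. The number of members above 0 was 1309 in mouse 5113 and 1210 to 1310 in the other 4.

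Valsartan mouse 5131 showed the same to a smaller extent. The same limit applies, since 255 of the 1124 members of its table fell under the minimum without it. Mouse 5131 contributed over 50% of the level of 134 members, against 52 to 80 for the other valsartan mice, and over 80% for 77, against 14 to 21. Members at 5 FPKM or more in that mouse and under 1 FPKM in the other 4 numbered 20, against 1 to 6. Among transcripts that are no members, 143 were at 5 FPKM or more in mouse 5131 and at least 10-fold above the next mouse of the group, and 120 in mouse 5113. The other 18 drug mice had 45 to 96. The cause was not tested. With both mice left out, 2769 members kept a mean of at least 0.5 FPKM in a table that lists them, 919 in the baicalin and 869 in the valsartan table.

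**Figure D4:**
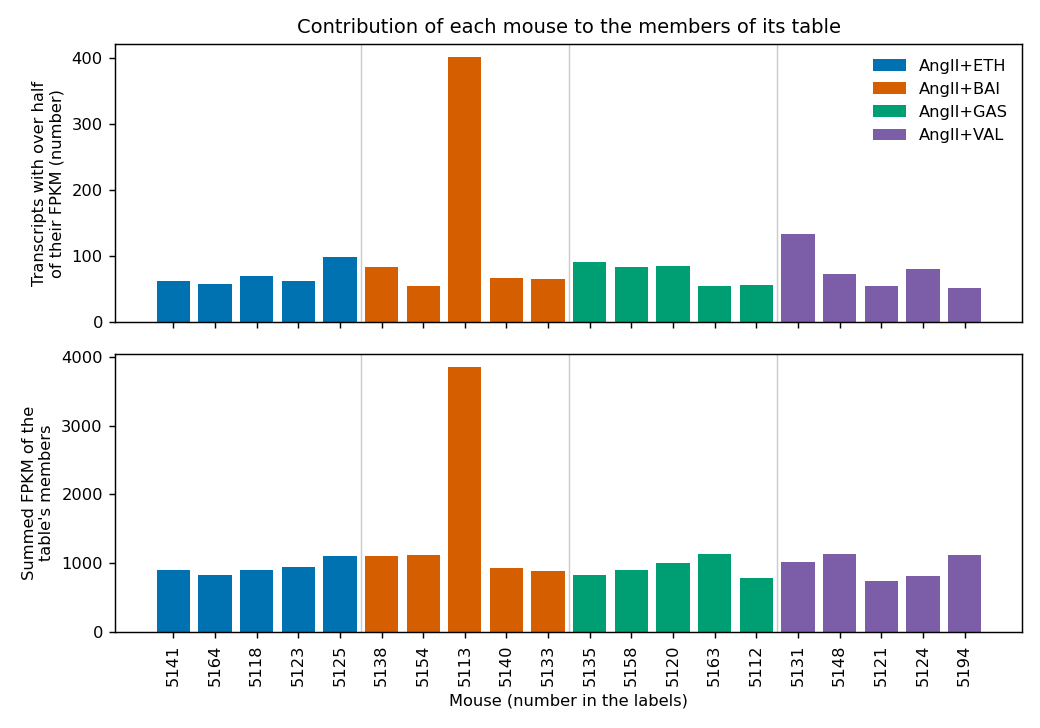
For each of the 20 drug mice (horizontal axis), the upper panel gives the number of members of its table for which that mouse holds over 50% of the summed FPKM, and the lower panel the summed FPKM of all members of the table. Bars are coloured by group. Baicalin mouse 5113 (401 transcripts and 3851 FPKM) stands above all others, and valsartan mouse 5131 (134 transcripts) is the next highest in the upper panel. Both panels include members that a high value in the mouse itself brought into its table.

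A set of members was high in some mice and near 0 in others across several drug groups. This set was chosen after the values were seen, as the members at 5 FPKM or more in at least 2 mice and under 0.5 FPKM in at least 2. It holds 44 members, and no member reached 5 FPKM in 2 or more mice without also falling under 0.5 FPKM in at least 2. Of the 44, 40 were listed by more than 1 drug table and 7 by all 4, and 16 had no mouse between 0.5 and 5 FPKM. The 44 members had 41 different sets of high mice, and each drug mouse was high for 3 to 12 of them. Of the 44, 30 had only 2 high mice, and the tables that list them differ, so many different sets can arise in any case. No baseline was computed, so the number of sets is a description only.

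The largest values of this set belonged to ENSMUST00000220401, listed in the baicalin, gastrodin and valsartan tables. It was at 320 FPKM in baicalin mouse 5154, 340 FPKM in gastrodin mouse 5163, and 364 and 327 FPKM in valsartan mice 5148 and 5194. In the other 11 mice of these groups it was at 0.0987 to 0.901 FPKM. The 4 high mice thus had similar levels in 3 groups, and no mouse stood between 0.901 and 320 FPKM. In the Control, AngII and AngII+ETH groups its mean was under 0.5 FPKM, so that no mouse of those 15 was at such a level. ENSMUST00000201575, listed for ethoxysanguinarine and baicalin, was at 9.18 to 23.5 FPKM in 7 of 10 mice and at 0 FPKM in the other 3.

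**Figure D5:**
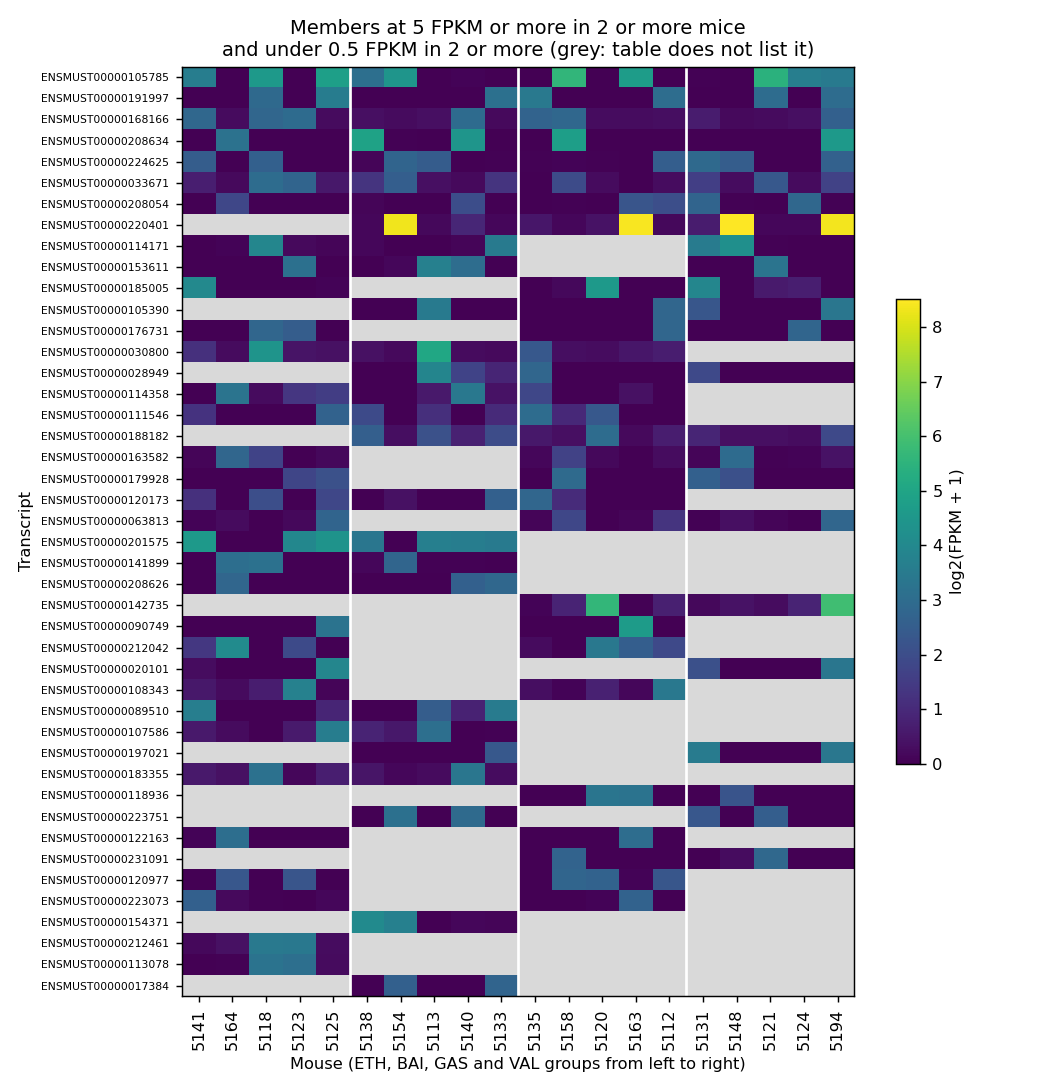
Level as log2(FPKM + 1) (colour scale) of the 44 members at 5 FPKM or more in at least 2 mice and under 0.5 FPKM in at least 2, with 1 row per transcript and 1 column per drug mouse; grey cells belong to tables that do not list the transcript. Bright cells are scattered over the mice of all 4 groups, and ENSMUST00000220401 reaches 320 to 364 FPKM in 4 mice.

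Even so, no member exceeded 2.5 FPKM in every mouse of a drug group. No single Control or AngII mouse could reach that level for a member. At least 1 mouse over 2.5 FPKM was found for 207 members in the ethoxysanguinarine table, 405 for baicalin, 186 for gastrodin and 205 for valsartan, and for 788 members (23.5%) over all tables. Leaving out mouse 5113 reduced the baicalin number to 147 and the total to 549, leaving out mouse 5131 reduced the valsartan number to 126, and with both left out the total was 484. In 3 or more mice of a table, 5, 4, 2 and 4 members were over it. No member was over it in all 5, so for none do these tables show a drug group whose mice all lie above every mouse of the Control and AngII groups.

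Levels could be compared between drug groups for members that both tables list. This used limma on log2(FPKM + 1), over all transcripts listed in both tables and at 1 FPKM or more in at least 5 of the 10 mice. The test addresses whether members that were shared differ between drugs. Over the 6 pairs, 347 to 409 members were listed in both tables and 24 to 34 passed the filter on low values, so these are the higher members only. Valsartan was given at another dose, so its comparisons set drug and dose together.

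No member passed an adjusted p under 0.05 in any of the 6 pairs (limma, Benjamini-Hochberg over all transcripts tested). Over all transcripts tested, 0.0271% were called for baicalin against ethoxysanguinarine, 0.0974% for gastrodin against ethoxysanguinarine and 0.108% for valsartan against ethoxysanguinarine. The shares were 0.0164% for gastrodin against baicalin, 0.0328% for valsartan against baicalin and 0.0435% for valsartan against gastrodin. These are 3 to 20 transcripts of 18278 to 18493, so that under 1 call would fall on the 24 to 34 members at the same share. At an unadjusted p under 0.05, 1 of 28 members was called for baicalin, 2 of 34 for gastrodin and 1 of 34 for valsartan against ethoxysanguinarine (limma). The shares of all transcripts were 6.11%, 5.5% and 5.81%. In the other 3 pairs 0 of 30, 0 of 29 and 0 of 24 members were called, with 5.45% of all transcripts for gastrodin against baicalin, 5.57% for valsartan against baicalin and 4.48% for valsartan against gastrodin. With a 2-fold change in addition, 0 members were called in each pair, and 1.64%, 1.53%, 1.75%, 1.44%, 1.41% and 1.22% of all transcripts in the order given. With so few members tested, these counts cannot tell whether the share of members differs from that of all transcripts. The pairs share mice and are not independent of each other.

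The member with the smallest p was ENSMUST00000211436, a transcript listed in all 4 tables. Its level was 1.70, 1.88, 0.849, 2.25 and 1.18 FPKM in the ethoxysanguinarine mice. It was 0.0747, 1.72, 0.248, 0.211 and 0.353 FPKM in the baicalin mice, 0.166, 0.361, 1.37, 0.530 and 0.838 FPKM in the gastrodin mice, and 0.168, 0.248, 1.54, 0.553 and 0.297 FPKM in the valsartan mice. The ethoxysanguinarine mice were mostly the higher ones, and 1 mouse of each other group lay among them. It passed the filter on low values through 4 ethoxysanguinarine mice and 1 mouse of the other group, so it was tested because it was high in the ethoxysanguinarine group, and its p gives no support for a difference. On the log2(FPKM + 1) scale the level was lower by 0.82 in the baicalin group (difference -0.82, standard error 0.27, 95% interval -1.41 to -0.22, adjusted p = 0.732 from limma). The difference from ethoxysanguinarine was -0.65 for gastrodin (standard error 0.22, adjusted p = 0.803) and -0.75 for valsartan (standard error 0.24, adjusted p = 0.682, limma). All 3 differences use the same 5 ethoxysanguinarine mice.

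Other members with the smallest p in a pair were further from the threshold. ENSMUST00000033289 had 1.14 ± 0.471 FPKM in the ethoxysanguinarine group, 1.40 ± 0.765 in the baicalin group and 1.93 ± 0.517 in the gastrodin group (SD, n = 5 each). The gastrodin level differed by 0.46 on the log2(FPKM + 1) scale from ethoxysanguinarine (standard error 0.19, adjusted p = 0.886) and by 0.34 from baicalin (standard error 0.26, adjusted p = 0.932, limma). ENSMUST00000041318 had 3.27 ± 2.20 FPKM in the baicalin group, with 4 mice from 2.75 to 6.04 FPKM and mouse 5113 at 0, and 0.993 ± 2.03 FPKM in the ethoxysanguinarine group, where 1 mouse was at 4.62 FPKM (SD, n = 5 each). Its difference of 1.26 had a 95% interval from -0.13 to 2.65 (adjusted p = 0.822, limma), and gastrodin differed from baicalin by -1.20 (adjusted p = 0.909). It passed the filter on low values through 4 baicalin mice and 1 mouse of the other group in each comparison. It was thus tested because it was high in the baicalin group, and its p gives no support for a difference.

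The members picked out by valsartan were similar. ENSMUST00000053670 had 2.19 ± 1.49 FPKM in the valsartan and 0.636 ± 1.39 FPKM in the gastrodin group (SD, n = 5 each), and ENSMUST00000113641 had 0.887 ± 1.27 and 1.63 ± 0.809 FPKM (both adjusted p = 1.00, limma). ENSMUST00000170134 had 2.43 ± 1.42 FPKM in the valsartan and 0.943 ± 1.31 FPKM in the ethoxysanguinarine group (adjusted p = 0.913, limma). Against baicalin, valsartan had 1.03 ± 0.379 and 0.561 ± 0.646 FPKM of ENSMUST00000203349 (adjusted p = 0.909) and 0.614 ± 0.693 and 1.45 ± 0.678 FPKM of ENSMUST00000036418 (adjusted p = 0.896, limma). The groups overlapped in all 12 comparisons of these members, and in 8 of them the 95% interval of the difference included 0. Overlap was not counted over all transcripts tested, so the number with overlap is a description only. The intervals are wide, so similar levels were not shown either. ENSMUST00000053670, ENSMUST00000203349 and ENSMUST00000036418 passed the filter on low values mostly through mice of the group where they were higher. Their p thus gives no support for a difference.

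At the edge of the rule, members just inside and transcripts just outside had almost the same means. The lowest mean of a member was 0.5002, 0.5001, 0.5007 and 0.5001 FPKM in the ETH, BAI, GAS and VAL tables. ENSMUST00000132511 was listed at 0.5011 FPKM in the ethoxysanguinarine and 0.5001 FPKM in the valsartan table, with valsartan mice from 0.160 to 0.953 FPKM. The lowest of the others were ENSMUST00000023758 (0.5002 FPKM in the ethoxysanguinarine table, where 1 of 5 mice was at 0), ENSMUST00000196894 in the baicalin table and ENSMUST00000133762 in the gastrodin table. Just outside, ENSMUST00000182553 had a mean of 0.5001 FPKM in the Control and 0.406 FPKM in the AngII group and was listed in 2 drug tables, so the Control mice alone keep it from being a member.

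The number in the Ensembl identifier is a property that the rule did not use. Of the members, 17.8% carried an Ensembl number of 200000 or above, compared with 11.5% of the 23938 Ensembl transcripts in the Control and AngII tables. Numbers broadly rise in the order in which Ensembl added transcripts. Among transcripts with a mean from 0.5 to 1 FPKM the difference was smaller, with 16.9% to 19.5% of the members and 15.2% to 15.8% of the others in the 4 drug tables. These shares are descriptions, with no test. Besides the members, 1295 merged transcript models were listed in drug tables only.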

How the data were processed

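The labels gave each sample's group. The authors deposited 1 table for each mouse, whose values were taken to be FPKM. The sources used here state neither the unit nor the aligner, quantifier and annotation, while the processing notes of the submitters list limma and the mouse build mm10. The paper's text gives another number of mice per group for RNA-seq than the 5 of the labels, and all labelled mice were used. The deposited FPKM values are not counts, so the depth per mouse is unknown and precision rests on the 5 mice of a group. Each library carries its own mouse number in the labels. The listing rule of each table was tested on the files.

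For each pair of drug groups, log2(FPKM + 1) was fitted by limma 3.58.1 under R 4.3.3 (mean-variance trend, two-sided, the 10 mice of the pair, transcripts at 1 FPKM or more in at least 5), with Benjamini-Hochberg adjustment over all transcripts tested, merged models included. A log scale with a pseudocount understates the change of low transcripts. Counts and figures were made with pandas 2.3.3 and matplotlib 3.10.9 in Python 3.11.15. Members named are, for all 4 tables and for each table alone, the 2 with the highest mean and the 2 with the highest value in their lowest mouse, for each pair the member with the smallest p in each direction, and for each table the one nearest the minimum. ENSMUST00000220401, ENSMUST00000201575 and the set they belong to were chosen after their values were seen. The members and all rules were chosen with earlier results of these data known. Gene lists were not analysed, since 0 identifiers matched a gene.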

Additional observations from a re-analysis of the deposited data

Results flagged for a closer look

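In 24 checks of library measures within the 4 drug groups, 5 values lay far from the other mice of their group by Dixon's criterion at the 95% level, where chance gives about 1 in 20. For baicalin mouse 5113 these were a summed level over the members of 3851 FPKM, 401 members with over 50% of their level in that mouse, 565 members under 0.5 FPKM without it, and a mean correlation of 0.772 with its group. For valsartan mouse 5131 it was a mean correlation of 0.812. The correlations run over all transcripts of a table, the members included, and the other measures over the members alone. A high value in mouse 5113 or 5131 could itself bring members into its table. The measures also overlap each other, so a rate of 1 in 20 does not apply to them.

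In 40 checks of named members within a drug group, 12 mice lay apart from the rest, but many of these members were named for a high mean, which 1 high mouse can give. ENSMUST00000105785 was at 42.6 FPKM in valsartan mouse 5121. ENSMUST00000208634 was at 8.27 FPKM in ethoxysanguinarine mouse 5164, 26.5 FPKM in gastrodin mouse 5158 and 23.0 FPKM in valsartan mouse 5194. ENSMUST00000133040 was at 16.6 FPKM in ethoxysanguinarine mouse 5125. ENSMUST00000033185 and ENSMUST00000027144 were at 575 and 176 FPKM in baicalin mouse 5113. ENSMUST00000066530 and ENSMUST00000156623 were at 49.5 and 48.2 FPKM in gastrodin mouse 5120. ENSMUST00000123238 and ENSMUST00000211050 were at 23.6 and 10.6 FPKM in valsartan mouse 5131. ENSMUST00000023758 was at 0.684 FPKM in gastrodin mouse 5135, where the others had 0.545 to 0.579 FPKM.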

How the results depend on the processing

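The number of members followed the listing minimum. With a mean of at least 1 FPKM it was 490 in place of 3356, with 403 in 1 table, 8 in all 4, and 136, 240, 120 and 118 in the ETH, BAI, GAS and VAL tables. With a median of at least 0.5 FPKM it was 1798, with 1288 in 1 table, 34 in all 4, and 677, 623, 618 and 581 by table, so the baicalin table no longer held the most. With merged models counted, 164 were in all 4 tables. Leaving out 1 mouse gave 2930 to 3284 members, 1897 to 2219 in 1 table, 76 to 96 in all 4, and 952 to 1089, 919 to 1309, 878 to 944 and 869 to 961 by table. The lowest of these totals and of the baicalin numbers are those without mouse 5113, also with mouse 5131 left out (919).

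The share of members that fell under the minimum without their highest mouse was 67.5%, 69.0% and 72.4% at a mean from 0.5 to 1 FPKM (ETH, GAS, VAL), and 38.1%, 56.0%, 33.3% and 48.0% at a mean from 1 to 2 FPKM (ETH, BAI, GAS, VAL), where other transcripts gave 2.90% to 4.12%. With another mouse left out first it was 55.9% to 60.1%, 60.5% to 69.3%, 56.9% to 59.7% and 59.8% to 64.5%. Above 0.1 FPKM in all 5 mice were 52.8%, 45.1%, 48.8% and 46.7%.

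Between drug groups, 0 members were called at adjusted p under all settings, with a smallest adjusted p of 0.546 to 1.00 (limma). At an unadjusted p, leaving out 1 mouse gave 0 to 3 members in the comparisons of gastrodin and of valsartan with ethoxysanguinarine, 0 to 2 for baicalin with ethoxysanguinarine and for gastrodin and valsartan with baicalin, and 0 to 1 for valsartan with gastrodin. With a 2-fold change it gave 0 to 2 for valsartan with baicalin and 0 to 1 or 0 elsewhere. Without a fold threshold, the fit of all 4 drug groups gave 1 for gastrodin with ethoxysanguinarine, and no filter gave 2 for valsartan with ethoxysanguinarine. With the 2-fold change, a pseudocount of 0.1 gave 1 member in each comparison with ethoxysanguinarine, as did a fold of 1.5 in its place. Over all transcripts, calls ranged over 0 to 24 at adjusted p, 726 to 1614 at unadjusted p and 203 to 469 with a 2-fold change. The members named kept their direction wherever they were tested, but most drop out of the filter without one of their high mice, so that they were tested in 5 to 10 of the 10 fits with a mouse left out. ENSMUST00000211436 was tested without ethoxysanguinarine mouse 5118 and not without any other mouse of that group, which says little on its stability. No paired analysis was possible because no label links mice across groups. The alternatives with mice 5113 and 5131 both left out, and with a mouse left out before the highest, and the counts by table without either mouse, were chosen after seeing the data. Depth is unknown, so values near 0 cannot be told from values not detected.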
